A study of Mus musculus with 6 samples.

Results

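The cytosolic nucleic acid sensors described here are 10 genes that encode proteins which bind RNA or DNA in the cytosol, together with an adaptor and a kinase that carry the signal and Nlrp3, an inflammasome sensor of cell stress. They were taken by gene name from a table of 28812 genes, and all 10 were found once each. The measurements come from poly(A) RNA sequencing of wild-type mouse chondrocytes, the cells of cartilage, in 6 libraries, all labelled with osteoarthritis (OA) as disease state. In 3 libraries the cells had received the inflammatory cytokine interleukin-1 beta (IL-1β) and mitochondria, and in 3 they had received IL-1β and vehicle. IL-1β was thus common to every library, and chondrocytes without it were not analysed here. By the title of the series the mitochondria were those of osteocytes, the cells embedded in bone, and neither age nor strain is given. The labels do not state whether replicates were separate animals or cultures, so p-values measure only the spread between these libraries, which may be technical.

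RNA in the cytosol is read by RIG-I (gene Ddx58) and MDA5 (Ifih1), helicases that bind RNA with a free phosphorylated end or long double-stranded RNA and signal through MAVS, an adaptor on the mitochondrial outer membrane. DNA in the cytosol is read by cGAS, and both routes meet at the kinase TBK1, which activates transcription factors of the interferon genes. Interferon in turn raises the transcripts of many of these sensors, so that their messenger RNA is often read as a mark of the response. Mitochondrial DNA and mitochondrial double-stranded RNA are known ligands of this system when they leave the organelle.

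Total depth was similar, at 63547854 to 66293786 deposited counts with mitochondria and 64646124 to 65131847 with vehicle. Mitochondria replicate 1 stood apart from the other mitochondria libraries by GC content, with lower AT-rich transcripts. Every mitochondria library also had more genes at 0 counts (8271 to 8673) than every vehicle library (7456 to 7813), and the part of this in the results was not tested.

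Of the 10 sensor genes, 4 rose with mitochondria and none fell, while 6 did not pass the test. Zbp1, a receptor for Z-form nucleic acid that triggers necroptosis, was 4.87-fold higher, Dhx58 (LGP2), a regulatory helicase, 2.18-fold, Adar, which edits adenosine to inosine in double-stranded RNA, 1.75-fold and Ddx58 1.54-fold. Ifih1, Mavs, Eif2ak2, Tbk1, Cgas and Nlrp3 did not pass. The test was edgeR's quasi-likelihood test on the deposited counts, with Benjamini-Hochberg adjustment over 17290 genes and a threshold of 0.05. By the same rule 6.36% of all genes tested were higher and 8.46% lower. The count of 0 lower members was also 0 at an unadjusted p under 0.05, in DESeq2 and in limma on FPKM (fragments normalised for transcript length and for library size). Of the 17290 genes tested, 2864, 2194 and 1639 were lower by these rules, so 0 of 10 is little evidence. The median log2 fold change of the 10 genes was 0.45, against 0.0031 over all genes tested, and 8 of the 10 estimates were above 0, against 50.3% of all genes tested. The members were chosen with earlier results of these data known, so these counts describe the genes and are not a test of the group. In bulk RNA, a change in the number of cells that express a gene cannot be told apart from a change in RNA per cell.

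**Figure D1:**
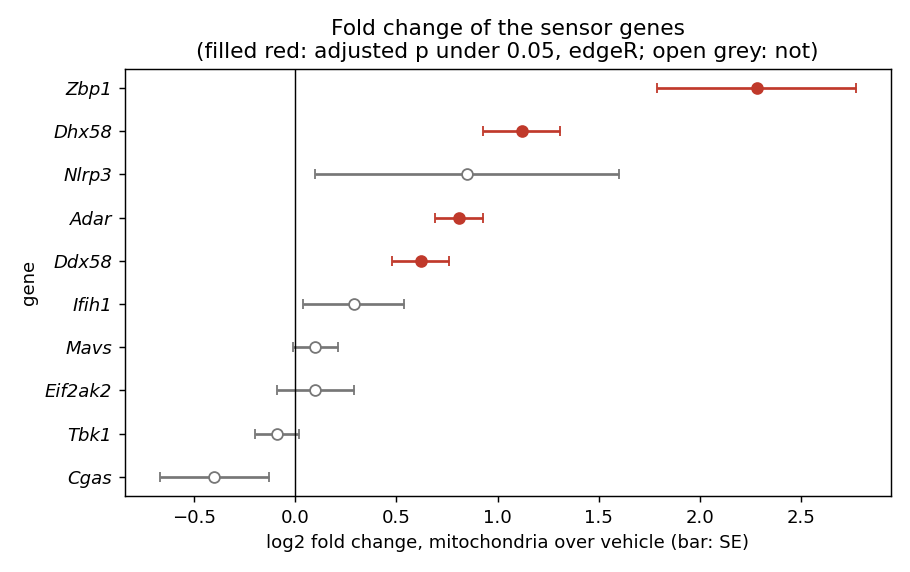
Log2 fold change of each sensor gene, mitochondria over vehicle (x axis), with its standard error as a bar. The 4 filled points (Zbp1 at 2.28, Dhx58 at 1.12, Adar at 0.81 and Ddx58 at 0.62) passed the test and the 6 open points did not. Nlrp3, at 0.85, has the widest bar (0.75).

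Ddx58 (ENSMUSG00000040296, chromosome 4, 40203773 to 40239825, minus strand, GRCm38) encodes RIG-I. Its level, in CPM (counts scaled to library size, with TMM factors), was 40.1, 48.5 and 45.4 in mitochondria replicates 1 to 3, against 23.9, 30.8 and 32.3 in vehicle replicates 1 to 3. The groups did not overlap, and vehicle replicate 1 was the lowest library. The log2 fold change was 0.62 ± 0.14 (SE, n = 3 per group; adjusted p = 0.023, edgeR). That call was lost without mitochondria replicate 2 (adjusted p = 0.055), mitochondria replicate 3 (0.073), vehicle replicate 2 (0.081) or vehicle replicate 3 (0.065), with estimates of 0.56 to 0.71 in these edgeR fits. It was also lost with no filter on low values, in edgeR (0.061) and in limma (0.1), so that Ddx58 passed in 9 of 15 alternative fits.

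Dhx58 (ENSMUSG00000017830, chromosome 11, 100694884 to 100704271, minus strand) encodes LGP2, a helicase of the same family that lacks the signalling domains of RIG-I and MDA5 and tunes both. It had 9.63, 7.03 and 9.25 CPM in mitochondria libraries, against 4.14, 3.42 and 4.34 CPM in vehicle libraries. The lowest mitochondria library was above the highest vehicle library. The log2 fold change was 1.12 ± 0.19 (SE; adjusted p = 0.01, edgeR), and the call was lost only without vehicle replicate 2 among the fits with 1 library left out (1.02, adjusted p = 0.058). It was also lost in limma with no filter on low values (adjusted p = 0.06), and Dhx58 passed in 13 of 15 alternative fits. An antisense gene, Dhx58os, overlaps it and averaged 2.1 CPM with mitochondria and 1.83 CPM with vehicle. The sources used here do not say whether strand was used in counting, so reads of the 2 genes cannot be told apart.

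Ifih1 (ENSMUSG00000026896, chromosome 2, 62595798 to 62646211, minus strand) encodes MDA5, the receptor for long double-stranded RNA. It had 4.61, 8.03 and 6.99 CPM in mitochondria libraries, against 4.17, 5.65 and 6.27 CPM in vehicle libraries. The groups overlapped, with replicate 1 the lowest library in both. The log2 fold change was 0.29 ± 0.25 (SE; adjusted p = 0.49, edgeR), and 0.49 without mitochondria replicate 1 (adjusted p = 0.17).

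Zbp1 (ENSMUSG00000027514, chromosome 2, 173206612 to 173218923, minus strand) was scarce. Its deposited counts were 129, 133 and 72 in mitochondria libraries, against 12, 33 and 27 in vehicle libraries. Low counts in the file piled up at 4, so 1 sequenced fragment is taken to be worth about 4 counts. On that reading Zbp1 rested on 83.5 fragments over the 3 mitochondria libraries and 18 over the 3 vehicle libraries, of which 3 were in vehicle replicate 1. In CPM these were 2, 2.14 and 1.14 with mitochondria, against 0.184, 0.491 and 0.405 with vehicle, with no overlap. In log2 the difference was 2.28 ± 0.49 (SE; adjusted p = 0.02, edgeR). The call was lost without vehicle replicate 2 (2.57, adjusted p = 0.059) or vehicle replicate 3 (2.37, adjusted p = 0.076). It was also lost with no filter on low values, in edgeR (adjusted p = 0.054) and in limma (0.062), and Zbp1 passed in 11 of 15 alternative fits. The size of the change depended on the scale: against 4.87-fold on counts, it was 2.75-fold in limma on log2(FPKM + 0.1) and 1.31-fold on log2(FPKM + 1), where the pseudocount understates changes of scarce genes.

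Adar (ENSMUSG00000027951, chromosome 3, 89715022 to 89753446, plus strand) encodes ADAR1, whose editing keeps the cell's own double-stranded RNA from activating MDA5, PKR and ZBP1. It was the most abundant of the 4 genes that rose. The libraries with mitochondria had 89.9, 75.5 and 76.7 CPM, against 52.3, 44.2 and 41.8 CPM in those with vehicle. Replicate 1 was the highest library in both groups, and the groups were well apart. The difference was 0.81 ± 0.12 in log2 (SE; adjusted p = 0.0067, edgeR). Adar kept its call in all 15 alternative fits, with log2 fold changes of 0.64 to 0.91 and adjusted p-values of 2.3e-07 to 0.048. Chrnb2, on the opposite strand, overlaps Adar and averaged 0.532 CPM with mitochondria and 0.346 CPM with vehicle. The gene has an interferon-driven long form and a constitutive short form, and the table gives 1 value per gene, so the forms were not told apart.

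Eif2ak2 (ENSMUSG00000024079, chromosome 17, 78852564 to 78882573, minus strand) encodes PKR, a kinase that binds double-stranded RNA and halts translation by phosphorylating eIF2 alpha. It had 31.3, 56.7 and 48.7 CPM in mitochondria libraries, against 42.1, 44.3 and 40.8 CPM in vehicle libraries. Mitochondria replicate 1 was the lowest of the 6 libraries and mitochondria replicates 2 and 3 were the highest. The log2 fold change was 0.10 ± 0.19 (SE; adjusted p = 0.76, edgeR). Without mitochondria replicate 1 it was 0.31 (adjusted p = 0.059), and without mitochondria replicate 2 it was -0.08 (adjusted p = 0.81).

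Cgas (ENSMUSG00000032344, chromosome 9, 78430526 to 78443237, minus strand), the DNA sensor that makes the messenger cyclic GMP-AMP, was among the scarce members. Cgas had 1.41, 1.98 and 1.53 CPM with mitochondria, against 2.18, 2.3 and 2.03 CPM with vehicle. Every mitochondria library was below every vehicle library, yet the difference did not pass (log2 -0.40 ± 0.27, SE; adjusted p = 0.35, edgeR). Its fragments, on the reading above, numbered 77.8 over the mitochondria libraries and 108 over the vehicle libraries. Of the 10 sensor genes, Zbp1, Dhx58, Adar and Ddx58 were higher in all 3 mitochondria libraries than in any vehicle library, as were 19.8% of all genes tested. Cgas was the 1 member lower in all 3, as were 20.9% of all genes tested.

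Mavs (ENSMUSG00000037523, chromosome 2, 131234063 to 131248025, plus strand), the adaptor on mitochondria that RIG-I and MDA5 share, had 34.9, 39.3 and 32.7 CPM with mitochondria, against 31.9, 32.7 and 34.9 CPM with vehicle. Tbk1 (ENSMUSG00000020115, chromosome 10, 121546455 to 121586787, minus strand), the kinase downstream of MAVS and of cGAS, had 35.7, 39.2 and 43.2 CPM with mitochondria, against 39.5, 42.5 and 43.7 CPM with vehicle. The groups overlapped for both genes. The log2 fold changes were 0.10 ± 0.11 for Mavs (adjusted p = 0.57, edgeR) and -0.09 ± 0.11 for Tbk1 (SE; adjusted p = 0.63). These were the narrowest errors of the 10 genes.

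Nlrp3 (ENSMUSG00000032691, chromosome 11, 59541568 to 59566956, plus strand) encodes the sensor of an inflammasome that responds to cell stress, including signals from damaged mitochondria. Its deposited counts were 57, 117 and 72 with mitochondria, against 75, 6 and 62 with vehicle. The groups overlapped, and vehicle replicate 2, at 1.5 fragments, stood below the other 5 libraries. The log2 fold change was 0.85 ± 0.75 (SE; adjusted p = 0.49, edgeR), and 0.32 without vehicle replicate 2 (adjusted p = 0.75). In limma on log2(FPKM + 1) it was 0.14 (adjusted p = 0.42).

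Levels were compared between genes in FPKM, which is corrected for length. With mitochondria the mean order was Mavs (9.44 ± 0.826, SD, n = 3), Tbk1 (8.92 ± 0.895), Adar (8.81 ± 0.867), Eif2ak2 (7.9 ± 2.24), Ddx58 (5.61 ± 0.53), Dhx58 (2.34 ± 0.391), Ifih1 (0.708 ± 0.188), Zbp1 (0.437 ± 0.134), Cgas (0.352 ± 0.0637) and Nlrp3 (0.282 ± 0.114). Each neighbour in that order overlapped with the next over the 3 libraries, except that Ddx58 was above Dhx58 and Dhx58 above Ifih1 in every library. With vehicle the order was Tbk1 (9.97 ± 0.619), Mavs (9.23 ± 0.495), Eif2ak2 (7.72 ± 0.369), Adar (5.28 ± 0.573), Ddx58 (3.82 ± 0.637), Dhx58 (1.12 ± 0.13), Ifih1 (0.609 ± 0.129), Cgas (0.486 ± 0.0327), Nlrp3 (0.164 ± 0.126) and Zbp1 (0.0941 ± 0.0418). Tbk1 overlapped with Mavs, Ifih1 with Cgas and Nlrp3 with Zbp1, and the other neighbours were apart. Zbp1 was thus 8th of 10 with mitochondria and 10th with vehicle, and Adar was 3rd with mitochondria and 4th with vehicle.

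**Figure D2:**
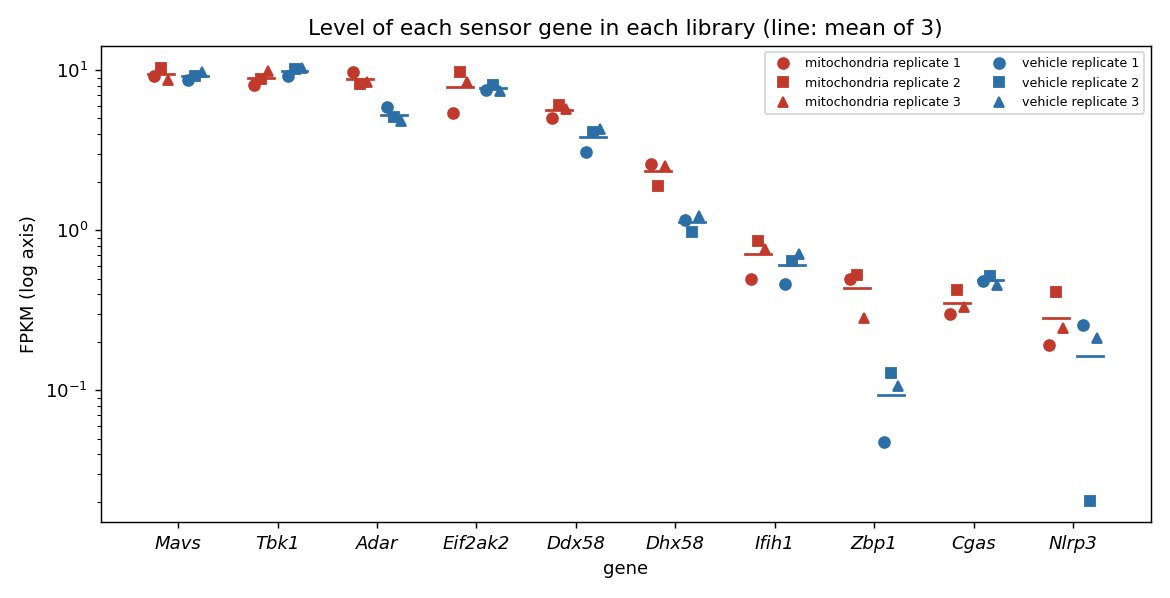
FPKM of the 10 sensor genes (y axis, log scale) in each of the 6 libraries, mitochondria in red and vehicle in blue, with a line at the mean of 3. Adar, Ddx58, Dhx58 and Zbp1 show red points above every blue point, Cgas shows the reverse, and vehicle replicate 2 of Nlrp3 lies far below the others at 0.0205 FPKM.

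Mitochondria replicate 1 differed from the other 2 mitochondria libraries by base composition. Among genes with a mean of at least 1 CPM, its median log2 deviation from the mean of those 2 libraries was taken by GC class. It was -0.75 for transcripts with less than 40% GC (411 genes) and -0.53 for 40 to 45% (2194 genes). At 45 to 50% it was -0.16 (3667 genes), and at 55% or more 0.23 (3389 genes). The same medians in the vehicle libraries lay between -0.12 and 0.09. Sensor genes on the AT-rich side followed the same direction in mitochondria replicate 1. Ifih1 (44.8% GC) deviated by -0.70, and Eif2ak2 (45.3%) by -0.75, well beyond the median of its class, 45 to 50%. In that class Ddx58 (45.3%), Cgas (47%) and Tbk1 (47.6%) deviated by -0.23, -0.30 and -0.21. Adar (54.2%) and Dhx58 (54%) deviated by 0.24 and 0.26, and Mavs (53.6%) by -0.04. The scarce Zbp1 (51.8%) and Nlrp3 (50%) deviated by 0.35 and -0.71. The median log2 fold change of all genes, mitochondria over vehicle, ran the same way. It was -0.80 under 40% GC, -0.34 at 40 to 45%, -0.07 at 45 to 50% and 0.18 at 55% or more. The part of replicate 1 in this was not tested. With offsets for GC content in the edgeR fit, the log2 fold change was 0.32 for Eif2ak2 (adjusted p = 0.091) and 0.53 for Ifih1 (adjusted p = 0.091). Without offsets these changes were 0.10 and 0.29. The offsets were fitted to each library's deviation from the mean of all 6 libraries, so they also remove a GC trend between the groups. Under these offsets Zbp1, Dhx58, Adar and Ddx58 passed again, at 2.23, 1.01, 0.69 and 0.87 (adjusted p = 0.013, 0.0056, 0.0025 and 0.0026, edgeR).

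**Figure D3:**
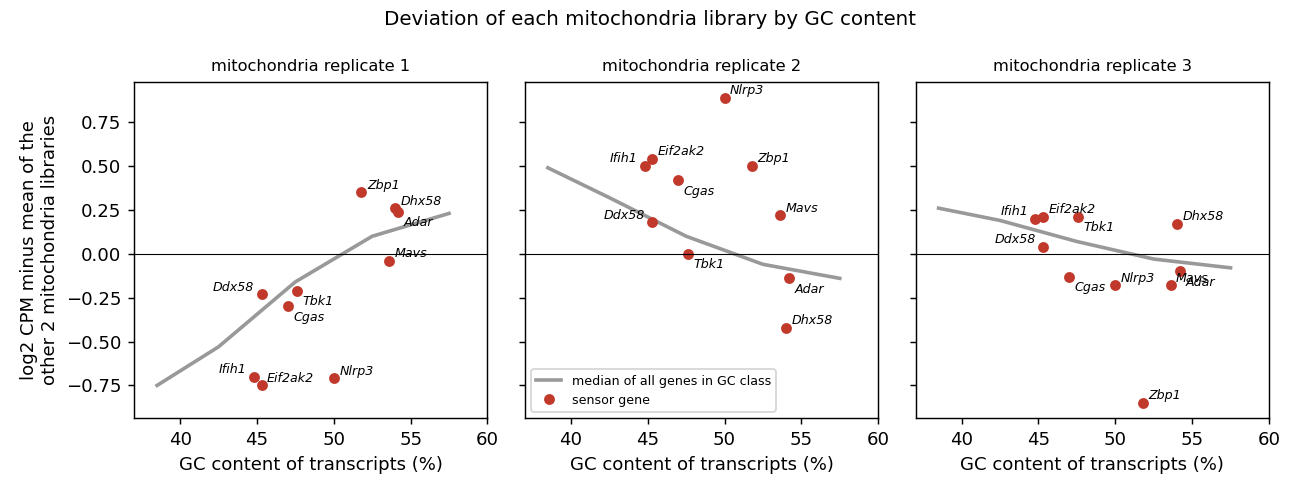
Deviation of each mitochondria library from the mean of the other 2 (y axis, log2 CPM) against the GC content of a gene's transcripts (x axis, percent), for the 10 sensor genes (points) and as the median of all genes per GC class (line, drawn at class midpoints, with the class under 40% near the left edge). The line rises with GC in replicate 1 and falls in replicates 2 and 3, where replicate 1 is part of the mean subtracted. Their fall is thus no separate observation. Ifih1 and Eif2ak2 lie at -0.70 and -0.75 in replicate 1.

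The start-site windows of the sensor genes were searched for the core of the interferon-stimulated response element, a site through which interferon raises transcription. Each window, from RefSeq on GRCm38.p6, holds 250 bases before and 50 after an annotated start. Of the 10 genes, 8 had a window in the table used (11 windows), and Zbp1 and Dhx58 had none. The letters GAAANNGAAA, on either strand, occurred in 3 of those genes: Ddx58, Eif2ak2 and Ifih1, against 3.99% of 27025 genes. Of these 3, Ddx58 rose and the other 2 did not pass. The windows of Adar (3), Cgas, Mavs, Nlrp3 (2) and Tbk1 did not hold these letters. Only exact letters were counted, so a near match, such as gaaagtgaac in a window of Adar, was not. The 3 windows with a match are shown since they set the called gene beside 2 uncalled ones, in the direction of transcription with the match in capitals.
Ddx58, chr4:40239776-40240075, minus strand: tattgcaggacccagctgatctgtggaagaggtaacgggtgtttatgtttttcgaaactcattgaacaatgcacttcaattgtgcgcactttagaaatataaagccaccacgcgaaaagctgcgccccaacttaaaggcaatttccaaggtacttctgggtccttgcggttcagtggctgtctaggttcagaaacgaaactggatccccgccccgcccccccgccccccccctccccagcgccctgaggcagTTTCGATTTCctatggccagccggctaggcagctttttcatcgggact
Eif2ak2, chr17:78882523-78882822, minus strand: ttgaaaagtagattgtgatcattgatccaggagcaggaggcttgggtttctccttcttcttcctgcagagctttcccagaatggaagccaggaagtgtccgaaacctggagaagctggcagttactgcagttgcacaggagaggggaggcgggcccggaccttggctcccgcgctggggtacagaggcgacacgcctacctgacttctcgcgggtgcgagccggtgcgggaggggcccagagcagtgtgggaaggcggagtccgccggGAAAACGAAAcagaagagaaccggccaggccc
Ifih1, chr2:62646206-62646505, minus strand: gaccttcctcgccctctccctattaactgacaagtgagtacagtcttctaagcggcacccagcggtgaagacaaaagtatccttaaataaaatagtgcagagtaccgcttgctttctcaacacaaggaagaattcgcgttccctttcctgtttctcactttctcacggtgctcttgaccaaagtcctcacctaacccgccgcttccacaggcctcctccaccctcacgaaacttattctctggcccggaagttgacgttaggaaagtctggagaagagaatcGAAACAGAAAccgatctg

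In each of the 3 windows the match lies just after the start, at bases 2 to 11 for Ddx58, 18 to 27 for Eif2ak2 and 32 to 41 for Ifih1, counted with the start base as 0. In Ddx58 the letters are on the opposite strand, and in the other 2 on the transcribed sense strand. A second pattern, TTCNNNGAA (the core of the gamma-activated site), occurred in 1 window of Adar and in that of Eif2ak2, against 9.55% of all genes. The ISRE core overlapped none of these. A match of letters is a description of the window and not a shown binding site.

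Around the sensors, 9 lists of pathway genes were counted, with 105 genes tested in all. Of these, 15 rose (14.3%, beside 6.36% of all genes tested) and 6 fell (5.71%, beside 8.46%). The lists were chosen with earlier results of these data known, so they give no independent support. The medians of the lists ran from -0.45 (inflammasome) to 0.33 (other RNA binders) in log2, with 0.15 for the interferon genes, beside 0.0031 over all genes tested. Among the interferon genes, Stat2 (log2 1.22 ± 0.15) and Irf9 (1.34 ± 0.11), transcription factors of the interferon signal, rose (SE; adjusted p = 0.0042 and 0.0029, edgeR). The receptor chains Ifnar1 (-0.01 ± 0.08) and Ifnar2 (-0.17 ± 0.09) did not pass, nor did the kinases Jak1 (-0.30 ± 0.16) and Tyk2 (0.23 ± 0.13). Jak1 had 195 CPM in mitochondria replicate 1 beside 298 and 303 CPM in replicates 2 and 3. The ligand genes Ifnb1, Ifna4 and Ifna5 were at 0 counts in all 6 libraries. A floor of 3 fragments, or 12 deposited counts, over a group allows a level of up to 0.0618 CPM with mitochondria and 0.0616 CPM with vehicle, for counting error only.

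Around Tbk1, 2 of 14 kinase-complex, adaptor and interferon regulatory factor genes rose. Irf7, which amplifies interferon transcription, averaged 25 ± 5.4 CPM with mitochondria and 4.89 ± 0.608 CPM with vehicle (SD, n = 3; log2 2.36, adjusted p = 0.0029, edgeR). Ikbkg, the scaffold of the kinase complex that activates NF-kB, rose by 0.39 ± 0.09 (adjusted p = 0.028). Irf3, the direct substrate of TBK1, was at 0.37 ± 0.12 (adjusted p = 0.073) and Ikbke, the kinase most like TBK1, at 0.05 ± 0.11 (adjusted p = 0.82), and neither passed.

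The other RNA binders held oligoadenylate synthases and helicases. Of 14 tested, Oas1a (2.13 ± 0.34) and Oasl2 (1.33 ± 0.18) rose, and the helicase Dhx36 fell (-0.67 ± 0.19, SE; adjusted p = 0.0079, 0.0053 and 0.045, edgeR). With GC offsets Dhx36, at 36.9% GC, changed in the opposite direction (0.49, adjusted p = 0.007). Mitochondria replicate 1 was the lowest library for Dhx36, at 26.1 CPM beside 46.2 and 40.1 CPM in mitochondria replicates 2 and 3. Without mitochondria replicate 1, and with no GC offsets, Dhx36 kept its lower call. Oas1a and Oas1g are near-identical paralogs, so how the counting divided their reads is uncertain. Of 15 regulators of RNA sensing, the ubiquitin ligase Trim25, an activator of RIG-I, rose (0.39 ± 0.09, adjusted p = 0.029), and Cyld, a deubiquitinase that restrains it, fell (-0.57 ± 0.13, adjusted p = 0.025). The change of Cyld was -0.06 with GC offsets (adjusted p = 0.67). Cyld had 55.9 CPM in mitochondria replicate 1 beside 76.9 and 78 CPM in replicates 2 and 3. Its lower call, with no GC offsets, was kept without mitochondria replicate 1.

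Of 15 DNA-sensing genes tested, Ifi204, a DNA-binding protein of the interferon-inducible p200 family, rose (0.87 ± 0.24, adjusted p = 0.044, edgeR) with 36 CPM in mitochondria replicate 1 beside 59.7 and 59.9 CPM in replicates 2 and 3. With GC offsets its estimate was 1.66 (adjusted p = 0.0013). Of the same family, Ifi203 (0.68, adjusted p = 0.14) and Mndal (0.73, adjusted p = 0.08) did not pass, but passed with GC offsets, at 1.54 (adjusted p = 0.0027) and 1.63 (adjusted p = 0.0022). Its reads may be divided with related family members such as Ifi203. The repair protein Rad50, which also binds cytosolic DNA, fell (-0.97 ± 0.18, adjusted p = 0.012). Among 14 genes of nucleic acid clearance, Samhd1, which degrades deoxynucleotides, fell (-0.69 ± 0.18, adjusted p = 0.037) and the ribonuclease Rnaset2b rose (0.56 ± 0.11, adjusted p = 0.016). Rnaset2a, a near-identical copy, had an estimate of the opposite sign (-0.67, adjusted p = 0.075), so the split between the 2 copies is uncertain. The exonuclease Trex1 (0.48 ± 0.40) did not pass, nor did Pnpt1 (-0.20 ± 0.19), which degrades mitochondrial double-stranded RNA.

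In the cell death arm of Zbp1, 2 of 7 genes rose. Mlkl, the pore-forming effector of necroptosis, averaged 37.6 ± 2.02 CPM with mitochondria and 20 ± 4.31 CPM with vehicle (SD, n = 3; log2 0.91, adjusted p = 0.0098, edgeR). Ripk3, the kinase that ZBP1 recruits, rose by 0.43 ± 0.11 (SE; adjusted p = 0.029), while Ripk1 (-0.06 ± 0.10) and Casp8 (0.07 ± 0.10) did not pass. Of 9 genes around PKR, the stress-response transcription factor Atf4 rose (0.55 ± 0.09, adjusted p = 0.0093). The eIF2 kinases Eif2ak1 (0.07 ± 0.09), Eif2ak3 (0.07 ± 0.10) and Eif2ak4 (-0.06 ± 0.17) did not pass.

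Of 9 inflammasome genes tested, 2 rose and 2 fell. Il1b, the mouse transcript of the cytokine that inflammasomes mature, had 6.21, 9.1 and 7.39 CPM with mitochondria, against 0.906, 0.149 and 0 CPM with vehicle. The groups did not overlap (log2 4.43 ± 0.91, SE; adjusted p = 0.017, edgeR), and the call was lost without vehicle replicate 2. Txnip, a thioredoxin-binding protein, rose by 0.31 ± 0.07 (adjusted p = 0.026). Casp4, an inflammatory caspase, fell (-0.92 ± 0.22, adjusted p = 0.028), as did Nek7, an activator of NLRP3 (-0.72 ± 0.19, adjusted p = 0.041). With GC offsets Casp4 was at -0.43 (adjusted p = 0.066) and Nek7 at 0.02 (adjusted p = 0.88). Mitochondria replicate 1 was the lowest library for both. It had 5.18 CPM of Casp4 beside 8.96 and 8.07, and 38.8 CPM of Nek7 beside 64.8 and 68.1, in mitochondria replicates 2 and 3. Without mitochondria replicate 1, and with no GC offsets, both genes kept their lower calls.

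Across the pathway lists, Oas1a, Oasl2, Irf7, Stat2 and Irf9 passed in all 6 edgeR fits with 1 library left out. Il1b passed in 5 of the 6, and Rad50, Rnaset2b, Mlkl and Atf4 in 4, where leaving out vehicle replicate 2 or vehicle replicate 3 ended the call. Without vehicle replicate 2, Il1b was at 4.06 (adjusted p = 0.081), and in the fits without vehicle replicate 2 or 3 these 4 genes had adjusted p-values of 0.053 to 0.082. The remaining 10 genes called passed in 1 to 3 of the 6, with adjusted p-values of 0.05 to 0.16 in the fits they failed and no change of sign. Cyld and Casp4 failed without mitochondria replicate 3, vehicle replicate 2 or vehicle replicate 3. Dhx36 and Nek7 failed without these and without vehicle replicate 1, and Ifi204, Ikbkg, Txnip and Ripk3 without mitochondria replicates 2 or 3 or vehicle replicates 2 or 3. Trim25 passed only without mitochondria replicate 1, and Samhd1 only without vehicle replicate 1. With GC offsets Cyld, Casp4 and Nek7 lost their calls. Ifi203, Mndal, Tomm70a (0.04 without offsets, 1.05 with them) and Eif2s1 (0.07 and 0.54) gained a higher call. Tank (-0.60 and 0.36) and Dhx15 (-0.39 and 0.33) gained a higher call with a change of sign. Rnaseh2c gained a lower call (-0.26 and -0.45). The lists of kinases and interferon regulatory factors, Zbp1 cell death, PKR and interferon had no lower call in edgeR. At an unadjusted p under 0.05 they had 2, 1, 1 and 0 lower genes, in DESeq2 2, 0, 1 and 0, and in limma on FPKM 1, 0, 1 and 0. These lists had 14, 7, 9 and 8 genes tested. Of all 17290 genes tested, 2864, 2194 and 1639 were lower by the same 3 rules, and 8.46% in edgeR.

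**Figure D4:**
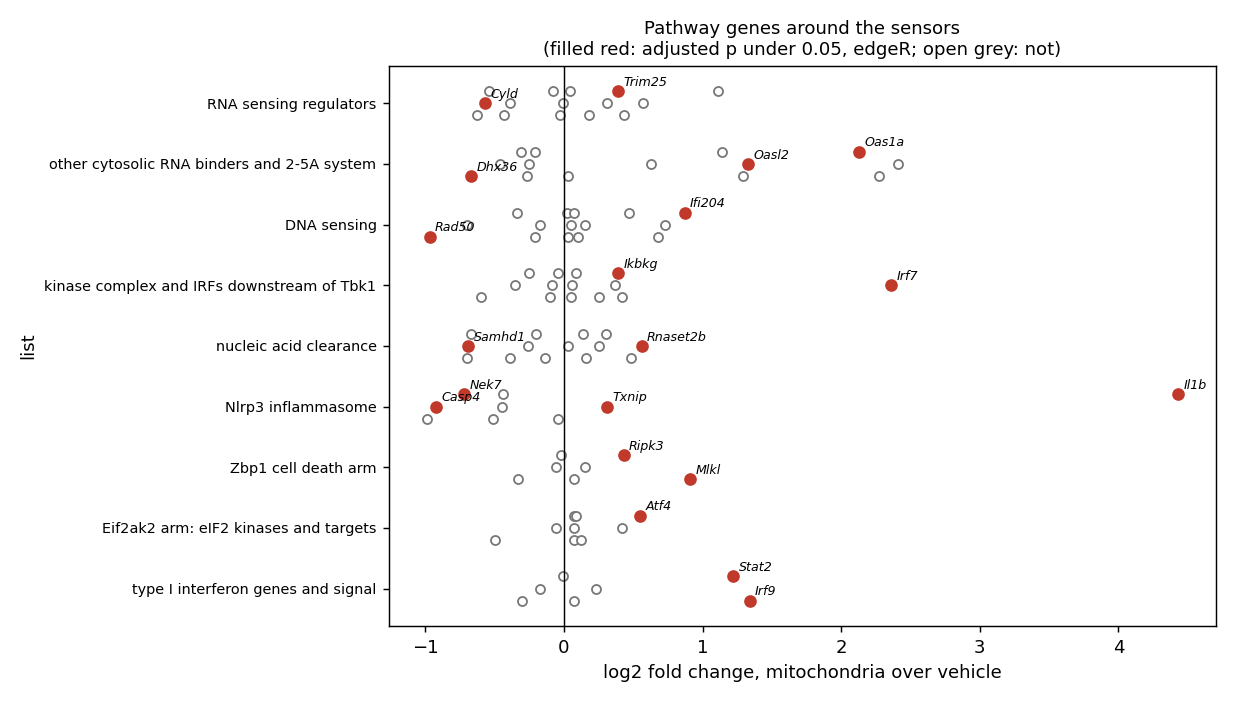
Log2 fold change, mitochondria over vehicle (x axis), of tested genes in the 9 pathway lists (rows), with those that passed filled and named. Of the named genes, Il1b, Irf7, Oas1a, Irf9, Oasl2 and Stat2 lie above 1, and Rad50 and Casp4 are the lowest. The row labelled downstream of Tbk1 also holds adaptors and kinases that are not downstream of it.

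The genes with the most similar profile over the 6 libraries were found by the Euclidean distance between centred log2 CPM. For Adar these were Bsg (basigin, distance 0.0582), Ubtd1 (0.0617) and Taldo1 (transaldolase, 0.0732). For Dhx58 they were Adssl1 (0.301), Tgm1 (0.33) and the interferon-induced gene Ifi27 (0.36). For Zbp1 they were Gm19610 (0.69), Ccdc155 (0.881) and Irf7 (0.883). For Ddx58, Zcwpw1 (0.161) and Nfasc (0.202) were among the nearest, with adjusted p-values of 0.12 and 0.33 (edgeR).

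Some sensors are abundant in leukocytes, so markers of other cells were read beside them. Of 12 macrophage markers tested none passed in edgeR, with 1 higher and 2 lower at an unadjusted p under 0.05, 1 higher and 1 lower in DESeq2 and none in limma. Their summed level was 81.2 to 94.6 CPM with mitochondria and 75.6 to 97.5 CPM with vehicle. Of their estimates 7 (58.3%) were above 0, beside 50.3% of all genes tested. Of the dendritic cell markers, Flt3, Siglech and Itgax were too low to test, at no more than 0.253 CPM in any library. Bst2, which interferon also induces, rose by 1.81 ± 0.17 (SE; adjusted p = 0.0031, edgeR). The other members tested, Zbtb46 (0.23 ± 0.21, adjusted p = 0.51) and Xcr1 (-1.42 ± 1.09, adjusted p = 0.42), did not pass. The summed level of that list was 28.8 to 42 CPM with mitochondria and 12.3 to 13.9 CPM with vehicle, most of it Bst2. Of the osteocyte markers, Dmp1 and Sost were near absent from every library, at no more than 0.0614 CPM. The summed level of that list was 244 to 270 CPM with mitochondria and 153 to 235 CPM with vehicle, nearly all of it Pdpn. In edgeR, Pdpn (0.52 ± 0.16, SE, adjusted p = 0.064) and Fgf23 (1.34 ± 0.73, adjusted p = 0.25) did not pass. Every mitochondria library was above every vehicle library for Pdpn, which passed with GC offsets (0.56, adjusted p = 0.032, edgeR). The chondrocyte markers were present, with Col2a1 at 912 to 1156 CPM with mitochondria and 1054 to 1219 CPM with vehicle. Of 9 chondrocyte markers Sox9 and Acan rose, both by 0.54, and Hapln1 fell (-1.03; adjusted p = 0.028, 0.041 and 0.0091, edgeR). With 1 library left out, Acan passed in 0 of 6 fits (adjusted p = 0.053 to 0.16). Sox9 passed in 2, failing without mitochondria replicates 2 or 3 or vehicle replicates 2 or 3 (0.058 to 0.12), and Hapln1 in 4, failing without vehicle replicates 2 or 3 (0.051 and 0.052). The part of other cells in the sensor results was not tested.

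Each call of a sensor gene was read with every library left out in turn. Adar passed in all 6 such fits, Dhx58 in 5, Zbp1 in 4 and Ddx58 in 2.

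**Figure D5:**
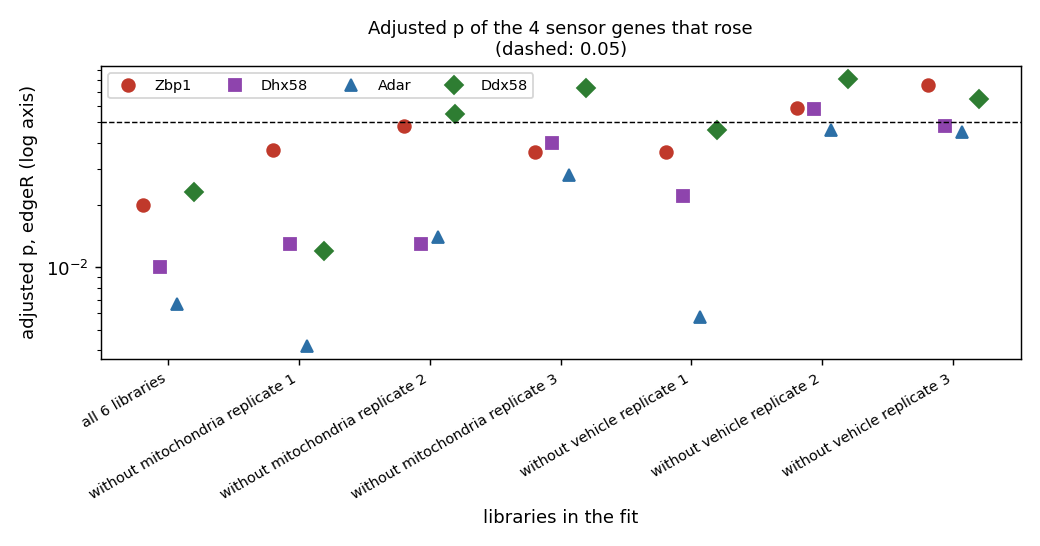
Adjusted p of edgeR's quasi-likelihood test (y axis, log scale) for the 4 sensor genes that rose, with all 6 libraries and with each left out in turn (x axis), and a dashed line at 0.05. Without vehicle replicate 2, 1 of the 4 passed (Adar), and without vehicle replicate 3, 2 passed (Adar and Dhx58).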

How the data were processed

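Levels came from 1 table with 2 values per gene and library. Its FPKM values were made by the authors with a correction for transcript length and library size, per the file headers. Its estimated counts (expected counts) were deposited as whole numbers without normalisation. The submitters' processing notes name StringTie 1.3.0, Bowtie 0.12.2, HISAT2 2.0 and, as build, mm8, without roles. The coordinates are those of GRCm38: 25914 of 28732 gene identifiers found in GENCODE M21 (90.2%) had the same start and end.

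Counts were tested in R 4.3.3 with edgeR 4.0.16 (TMM, filterByExpr with a minimum count of 10, quasi-likelihood test, two-sided, Benjamini-Hochberg over 17290 genes, threshold 0.05), on group alone. Standard errors were derived from the estimate and its F statistic. The 15 alternatives included DESeq2 1.42.0, limma 3.58.1 on log2(FPKM + 1), GC offsets from GENCODE transcripts, a replicate block and each library left out. Sensor genes and lists were chosen with earlier results of these data known. Named are all 10 sensors, the list genes that passed (a rule), others as context chosen after their values were seen, and the 3 nearest profiles per called sensor; some genes that meet the rule are not reported here. In the lists, 111 of 119 genes were in the table, and the others were not analysed here. Depth intervals cover counting error only.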

Additional observations from a re-analysis of the deposited data

How the results depend on the processing

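The count of 4 higher sensor genes was kept to within 1.5 times in all alternatives except 4. It was 2 with no filter on low counts and 1 in limma on log2(FPKM + 1) with no filter, where more genes were tested, and ranged from 1 to 4 with 1 library left out. No sensor gene fell in any of the 15 alternatives. Over all genes, 1099 were higher and 1463 lower, against 357 and 507 with no filter on low counts, 161 and 301 in limma with no filter, and 1789 higher with GC offsets. With 1 library left out the counts ran from 130 to 1086 higher and from 310 to 1694 lower, at their smallest without vehicle replicate 2 or 3. Eif2ak2, which did not pass, changed sign in limma (-0.0025 with a pseudocount of 1, with or without the filter, and -0.01 with 0.1) and ranged from -0.08 to 0.31 with 1 library left out. Tbk1, which did not pass, was at 0.04 with GC offsets. The causes were not tested. With the replicate number as a replicate block, 898 genes were higher and 1386 lower and the same 4 sensor genes passed. The numbers do not pair the libraries by the labels, and same-number libraries correlated at 0.0371, 0.00907 and -0.0152 once group means were removed. Zbp1, Cgas and Nlrp3 are limited by depth, with 18 to 108 fragments over 3 libraries.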
